A study of Mus musculus with 11 samples.

Results

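Beta-catenin, encoded by Ctnnb1, and genes that canonical Wnt signalling acts on or through were examined in whole distal tibiae of mice that had lost bone marrow adipocytes (BMAds). The group was a list of 10 names, namely Ctnnb1, the TCF and LEF factors Lef1, Tcf7l1 and Tcf7l2, and the targets or feedback inhibitors Axin2, Apcdd1, Nkd1, Nkd2, Notum and Sp5. Of these, 8 were among the 22600 genes of the merged count table, and all 8 were among the 16496 genes with enough counts to be tested. Tcf7l2 and Sp5 were not in that table, and their values came from the count file of each library. The question was whether the transcripts of the targets followed that of Ctnnb1 when BMAds were depleted.

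The libraries came from 4 Control mice, whose genotype is given as BMAd-WT, and 7 BMAd-DTA mice, all of strain C57BL6/SJL, 24 weeks old and fed ad libitum. Per the methods of the study, both groups carried Osterix-FLPo and an adiponectin-locus Cre (FAC) that FLPo switches on, so that Cre acts where Osterix and adiponectin have both been expressed, and this knock-in lowers circulating adiponectin in the controls too. BMAd-DTA mice also carried a ROSA-DTA allele, from which Cre releases diphtheria toxin A. Each library held the RNA of a whole powdered bone, so that fewer cells of a type and less RNA per cell cannot be told apart.

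Libraries held 16969529 to 18637663 counts in genes. Skeletal muscle RNA differed widely among them, with 10 muscle markers summing to between 17.5 and 25.2 CPM, read counts scaled to equal library size, in Control replicate 4 and BMAd-DTA replicates 2, 3 and 5, and to between 170.2 and 1279 CPM in the other 7 libraries. These sets are called muscle-poor and muscle-rich, a division made after the values were seen. The 10 osteoblast markers summed to between 3175 and 13410 CPM in controls and to between 16220 and 36430 CPM in BMAd-DTA mice, with all 7 BMAd-DTA mice above every control and all 10 markers higher in fitted value. All 7 BMAd-DTA mice were likewise above every control in the sums of 6 osteocyte markers (327.8 to 433.7 CPM in controls, 469.4 to 827 CPM in BMAd-DTA mice) and of 7 chondrocyte markers (448.3 to 720.9 and 778.5 to 965.7 CPM). In fitted value 5 of the osteocyte markers were higher and 1, Fgf23, was lower (log2 fold change -1.42, edgeR adjusted p = 0.315). All 6 tested chondrocyte markers were higher. The 6 osteoclast markers were all higher in fitted value and summed to between 1313 and 2821 CPM in controls and to between 1761 and 4526 CPM in BMAd-DTA mice. The 10 adipocyte markers summed to between 674.9 and 1410 CPM in controls and to between 261.4 and 891.6 CPM in BMAd-DTA mice, of which 4 fell outside the control range on the lower side.

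In canonical Wnt signalling, beta-catenin is held low by a destruction complex of Axin, APC, the kinases GSK3 and casein kinase 1, and an F-box protein that marks it for degradation. A Wnt ligand at its receptors halts that complex, and beta-catenin then enters the nucleus and joins TCF and LEF factors to switch on target genes. Several targets are themselves inhibitors that close a feedback loop, and in bone the pathway is known for promoting osteoblast formation. Beta-catenin protein is set mainly by its degradation and it also links cadherins to the cytoskeleton at cell junctions, so a level of Ctnnb1 transcript is not a level of signalling.

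The 7-letter core that TCF and LEF factors recognise, CTTTGAT, and its first 6 letters, CTTTGA, were looked for on both strands of RefSeq promoter windows of build GRCm38.p6, each holding 250 bases before and 50 after a start site. Every match to the longer motif is also a match to the shorter one. Among the 10 genes, 8 had windows that were searched, 13 in all. None was searched for Apcdd1 or Notum, and the source of the windows held none for Notum. CTTTGAT occurred in 1 of the 13 windows and in 3.73% of the 32817 windows of all genes, and CTTTGA in 2 of 13 and in 16.0% of all. A looser form, CTTTG followed by 2 letters that were each A or T, occurred in 3 of 13 windows and in 16.9% of all. The motif forms were chosen after matches had been seen. The windows of Sp5 and of 1 of the 4 Lef1 starts are shown because they hold the matches to CTTTGA (the third match to the looser form was in a Tcf7l2 window), and that of Axin2 because this gene is the commonly used readout of the pathway and its window holds none. Capitals mark CTTTGA or its reverse complement TCAAAG.
Sp5, chr2:70474673-70474972, plus strand: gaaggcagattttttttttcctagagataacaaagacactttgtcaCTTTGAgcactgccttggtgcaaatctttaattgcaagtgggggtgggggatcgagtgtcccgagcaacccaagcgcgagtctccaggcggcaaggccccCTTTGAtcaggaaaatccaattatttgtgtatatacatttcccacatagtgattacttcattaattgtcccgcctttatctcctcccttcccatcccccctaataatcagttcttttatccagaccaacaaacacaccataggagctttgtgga
Lef1, chr3:131156044-131156343, plus strand: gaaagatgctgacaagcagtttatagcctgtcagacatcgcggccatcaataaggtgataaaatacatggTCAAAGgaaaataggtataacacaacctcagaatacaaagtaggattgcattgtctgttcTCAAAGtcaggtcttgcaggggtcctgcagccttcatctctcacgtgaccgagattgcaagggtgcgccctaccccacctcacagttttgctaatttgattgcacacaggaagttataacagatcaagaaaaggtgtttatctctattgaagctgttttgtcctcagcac
Axin2, chr11:108920099-108920398, plus strand: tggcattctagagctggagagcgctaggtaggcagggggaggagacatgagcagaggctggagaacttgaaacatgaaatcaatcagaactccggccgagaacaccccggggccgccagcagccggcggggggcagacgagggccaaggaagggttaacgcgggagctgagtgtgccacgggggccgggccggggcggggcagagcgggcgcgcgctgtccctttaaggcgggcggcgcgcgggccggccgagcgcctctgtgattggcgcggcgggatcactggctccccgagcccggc
The Sp5 window held 2 matches to CTTTGA, of which 1 was the full CTTTGAT, and the Lef1 window held 2 matches to TCAAAG.

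Per length, Ctnnb1 was by far the most abundant transcript of the group. Its control level was 66.3 ± 4.77 CPM per kilobase of exon (RPKM, SD, n = 4), followed by Tcf7l1 at 10.2 ± 0.940 RPKM, and the ranges of these and of the next gene did not overlap. Nkd2 (3.34 ± 0.814), Tcf7l2 (2.58 ± 0.562), Lef1 (2.07 ± 0.643), Apcdd1 (1.495 ± 0.143), Axin2 (1.42 ± 0.166), Nkd1 (1.03 ± 0.193) and Notum (0.713 ± 0.134 RPKM) came next. The ranges of neighbours in that order overlapped for all 7, so that neighbours were not resolved, while genes farther apart in the order, such as Nkd2 and Axin2, did not overlap. Sp5, a zinc finger factor, was at the floor. It had 3 counts in Control replicate 2, 1 count in BMAd-DTA replicate 6 and 0 in the other 9 libraries, where a count of 0 allows up to between 0.156 and 0.177 CPM (3 counts per library, counting error only), and no comparison of it is given.

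Ctnnb1 was higher in BMAd-DTA bones by 1.24-fold. The 4 controls were at 308.6, 347.2, 356.5 and 364.5 CPM, and the 7 BMAd-DTA mice ran from 395.7 through a median of 418.2 to 502.2 CPM. The groups did not overlap, and the lowest BMAd-DTA mouse stood above the highest control. Group means were 344.2 ± 24.8 (SD, n = 4) and 427.0 ± 36.3 CPM (SD, n = 7), a log2 fold change of 0.31 (SE 0.076). By edgeR's quasi-likelihood test the unadjusted p was 0.00126 and the Benjamini-Hochberg adjusted p over all genes was 0.0809, which misses the 0.05 threshold, while DESeq2, the tool of the study, gave an adjusted p of 0.00680. Leaving out each mouse in turn gave log2 fold changes from 0.26 to 0.34 with edgeR adjusted p from 0.0663 to 0.282. The smallest change and the highest adjusted p both came without Control replicate 1, the control with the lowest Ctnnb1. Its osteoblast markers summed to 3175 CPM, where Control replicates 2 to 4 had 11380 to 13410 CPM. Within the muscle-rich libraries the log2 fold change was 0.31 (SE 0.081, adjusted p = 0.151, edgeR). That all 4 BMAd-DTA mice there stood above all 3 controls follows from the lack of overlap over all mice. The muscle-poor control was at 364.5 CPM beside 3 muscle-poor BMAd-DTA mice between 398.9 and 502.2 CPM, and 1 control allows no test. The sums of osteoblast, osteocyte and chondrocyte markers were apart between genotypes in the same way as Ctnnb1, and their part in its values, and in those of Notum, was not tested.

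The gene lies on chromosome 9, 120929216 to 120960507 (mm10, plus strand), and 759 of its exon bases are shared with exons of Ulk4 on the opposite strand. The reported counts used the strand of the read. Counts of both strands together, in which shared bases are left out as ambiguous, held 70.7% as many Ctnnb1 counts and gave a log2 fold change of 0.30 (edgeR adjusted p = 0.0982).

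Notum, a secreted deacylase that strips Wnt ligands of the lipid they need, was the gene of the group with the largest difference. Controls were at 1.65, 1.47, 2.19 and 1.56 CPM, and BMAd-DTA mice ran from 2.51 through a median of 2.81 to 5.90 CPM. All 7 BMAd-DTA mice again stood above every control, and BMAd-DTA replicates 3 and 7, at 5.90 and 4.69 CPM, stood well above the other 5. The means were 1.72 ± 0.322 and 3.44 ± 1.32 CPM, a log2 fold change of 1.001 (SE 0.28, edgeR adjusted p = 0.111, DESeq2 adjusted p = 0.0218). These values rest on few reads, 25 to 37 counts per control library and 44 to 104 per BMAd-DTA library. Within the muscle-rich libraries the log2 fold change was 0.82 (SE 0.32, adjusted p = 0.322, edgeR). The lack of overlap there follows from that over all mice. Notum lies on chromosome 11, 120653788 to 120661175 (minus strand), and shares 708 exon bases with Notumos and 210 with Myadml2os on the opposite strand. Counts of both strands held 64.5% as many reads and gave a log2 fold change of 1.09 (edgeR adjusted p = 0.120).

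**Figure D1:**
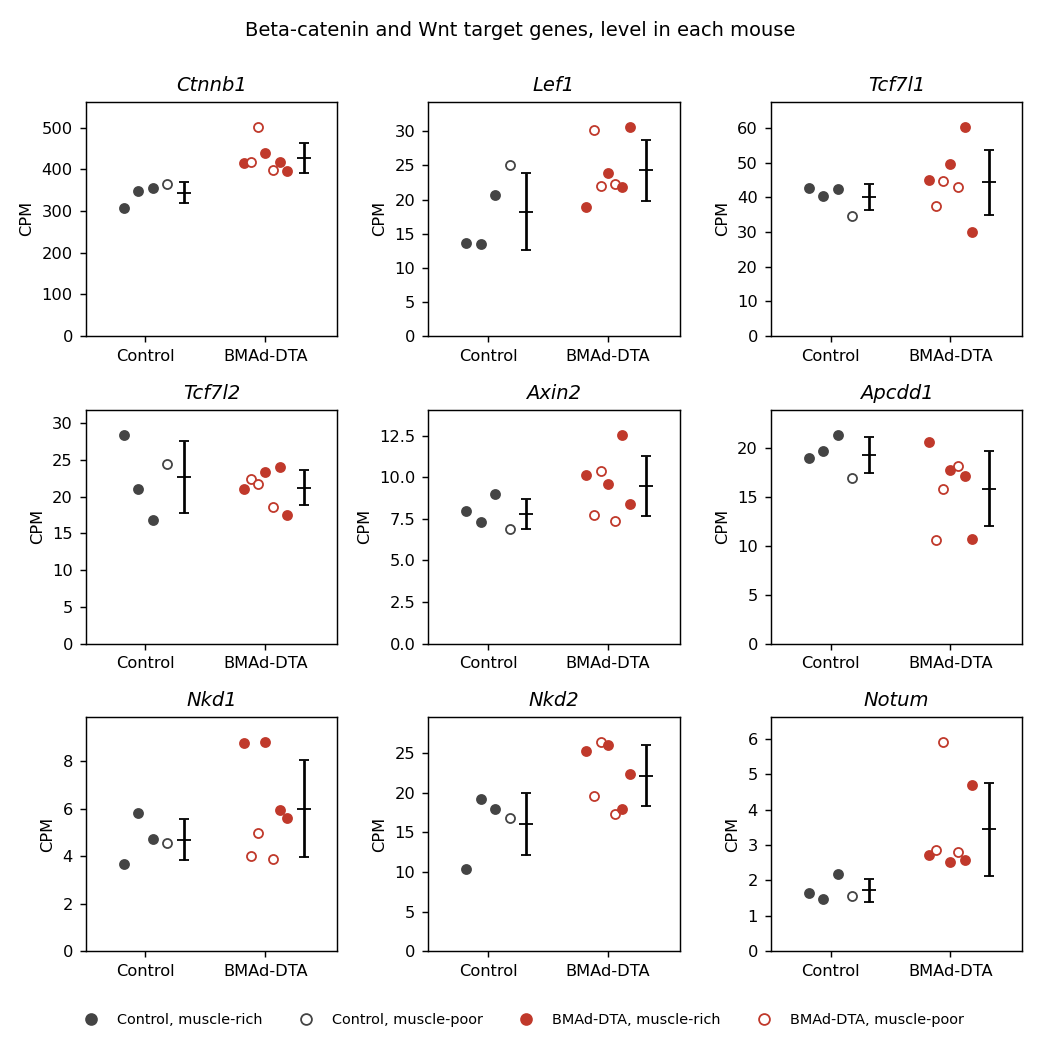
Level (CPM, vertical axis from 0) of 9 genes in each of 4 Control and 7 BMAd-DTA mice. Each point is a mouse, filled where the library was muscle-rich and open where it was muscle-poor, and the bar beside each group is the mean ± SD. The groups are apart for Ctnnb1 and Notum and overlap for the other 7 genes, Sp5 having too few counts to plot.

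Nkd2 and Nkd1 encode Naked cuticle proteins, which bind Dishevelled and dampen the signal. Nkd2 was at 10.4, 19.3, 17.96 and 16.8 CPM in controls and ran from 17.3 through a median of 22.3 to 26.4 CPM in BMAd-DTA mice, 5 of which were above every control. Its log2 fold change was 0.46 (SE 0.17, edgeR adjusted p = 0.200), and the lowest control, replicate 1, stood apart from the other 3. Without that control the log2 fold change was at its lowest among the mice left out in turn, 0.30. Nkd1 was at 3.69, 5.83, 4.73 and 4.56 CPM in controls and ran from 3.90 through 5.60 to 8.80 CPM in BMAd-DTA mice, 3 of which were above every control (log2 fold change 0.35, SE 0.25, edgeR adjusted p = 0.517). Its BMAd-DTA values divided by muscle content, at 7.28 ± 1.75 CPM in the 4 muscle-rich and 3.90 to 4.99 CPM in the 3 muscle-poor mice, beside 4.75 ± 1.07 CPM in the 3 muscle-rich controls and 4.56 CPM in the muscle-poor one. BMAd-DTA replicates 6 and 7, with the most muscle marker RNA of the 4 muscle-rich BMAd-DTA mice, were at 5.93 and 5.60 CPM. Replicates 1 and 4 of that group were at 8.78 and 8.80 CPM. In the muscle-rich libraries the log2 fold change of Nkd1 was 0.61 (SE 0.25, edgeR adjusted p = 0.347). The part of muscle in this was not tested.

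Axin2, a scaffold of the destruction complex and a direct target of beta-catenin, was at 7.99, 7.30, 8.98 and 6.90 CPM in controls. In BMAd-DTA mice it ran from 7.35 through 9.62 to 12.6 CPM, so that 4 of 7 mice were above every control and the groups overlapped. The log2 fold change was 0.28 (SE 0.15, edgeR adjusted p = 0.392), about that of Ctnnb1 but with a standard error of 0.15 where that of Ctnnb1 was 0.076. Apcdd1, a membrane-bound inhibitor that binds Wnt and its receptors, was the only gene of the 8 in the merged table with a lower mean in BMAd-DTA bones. Controls were at 18.96, 19.7, 21.4 and 16.96 CPM and BMAd-DTA mice ran from 10.6 through 17.1 to 20.7 CPM, with 3 of 7 below every control. BMAd-DTA replicates 2 and 7, at 10.6 and 10.7 CPM, were the lowest, and the log2 fold change was -0.28 (SE 0.17, edgeR adjusted p = 0.447).

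Among the DNA-binding partners of beta-catenin, Lef1 was at 13.6, 13.5, 20.7 and 25.0 CPM in controls and ran from 18.97 through 22.3 to 30.6 CPM in BMAd-DTA mice. The control with the highest value was the muscle-poor one, and 2 of 7 BMAd-DTA mice exceeded it (log2 fold change 0.41, SE 0.19, edgeR adjusted p = 0.290). Within the muscle-rich libraries the log2 fold change was 0.58 (SE 0.21, adjusted p = 0.280, edgeR). Lef1 is also expressed in lymphocyte precursors, and the T lymphocyte markers, 7 genes summed, ran from 84.3 to 137.3 CPM in controls and from 118.2 to 173.5 CPM in BMAd-DTA mice, with 7 of 7 markers higher in fitted value. The 9 B lymphocyte markers, also all higher in fitted value, ran from 422.2 to 949.8 CPM in controls and from 695.1 to 1651 CPM in BMAd-DTA mice, and the part of either cell type in the Lef1 values was not tested. Tcf7l1, known mainly as a repressor in the absence of beta-catenin, was at 40.1 ± 3.69 CPM in controls and 44.3 ± 9.47 CPM in BMAd-DTA mice (log2 fold change 0.14, SE 0.15, edgeR adjusted p = 0.686). Its BMAd-DTA values ran from 29.9 to 60.3 CPM and surrounded the controls, with 5 mice above and 1 below all of them. The log2 fold change was 0.056 without BMAd-DTA replicate 6, 0.082 without Control replicate 4 and 0.22 without BMAd-DTA replicate 7. Tcf7l2 was at 22.7 ± 4.93 and 21.2 ± 2.42 CPM (log2 fold change -0.09, SE 0.13, edgeR adjusted p = 0.788, fitted on the read-strand counts of all genes, a fit added after seeing the data), and no BMAd-DTA mouse lay outside the control range.

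Across the group, 0 of the 8 tested genes passed an adjusted p of 0.05 in edgeR, a threshold that 0.0788% of all genes passed. At an unadjusted p under 0.05, 4 of 8 (Ctnnb1, Lef1, Nkd2 and Notum) were higher in BMAd-DTA mice, beside 7.89% of all genes, and 0 of 8 were lower, beside 8.53% of all genes. Every BMAd-DTA mouse stood above every control for 2 of 8, beside 1.78% of all genes. DESeq2 called 2 of 8, Ctnnb1 and Notum, both higher, where it called 2.78% of all genes with an adjusted p higher and 2.64% lower. The median log2 fold change of the 8 was 0.33, beside 0.0018 over all genes.

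Whether each gene moved as Ctnnb1 did was asked by subtracting, in each mouse, the log2 CPM of Ctnnb1 from that of the gene. With Ctnnb1 itself higher, this ratio was lower in BMAd-DTA mice for 47.1% of all genes and higher for 1.43% at an unadjusted p under 0.05 (exact permutation test, two-sided, over the 330 ways to split 11 mice into 4 and 7, smallest possible p 0.00303). For Axin2, Nkd1, Nkd2 and Lef1 the ratio to Ctnnb1 was not shown to differ between genotypes. The difference in log2 ratio, BMAd-DTA minus Control, was -0.05 for Axin2 (exact permutation p = 0.742), -0.01 for Nkd1 (p = 0.946), 0.16 for Nkd2 (p = 0.321) and 0.13 for Lef1 (p = 0.521), and these p-values do not show that the ratios were alike. With a mouse left out the difference ranged from 0.020 to 0.26 for Nkd2, lowest without Control replicate 1, and from 0.0023 to 0.27 for Lef1, lowest without Control replicate 2. For Tcf7l1 it was -0.19 (exact permutation p = 0.306).

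For Apcdd1 and Notum the ratio differed in opposite directions at an unadjusted p under 0.05, and neither passed after adjustment. The log2 ratio of Apcdd1 was -4.02, -4.13, -4.05 and -4.42 in controls, and in 6 of 7 BMAd-DTA mice it was below all of these, down to -5.29. Its mean fell short of the control mean by a difference of -0.62 (exact permutation p = 0.0182, adjusted p = 0.0513 over the ratios of all genes), in the direction that 47.1% of all genes took, so that a lower ratio was common among all genes. Leaving out each mouse kept the difference between -0.71 and -0.54 with exact permutation p up to 0.0417, and in the muscle-rich libraries it was -0.62 (exact permutation p = 0.0571, where 3 and 4 mice allow no p below 0.0286). The log2 ratio of Notum was -7.45, -7.78, -7.28 and -7.77 in controls and above all of these in 5 of 7 BMAd-DTA mice, the highest being -6.37. The difference was 0.59 (exact permutation p = 0.0394, adjusted p = 0.0862), and its p rose above 0.05, up to 0.0833, when Control replicate 1, 2 or 4 or BMAd-DTA replicate 2 or 5 was left out. In the muscle-rich libraries it was 0.44 (exact permutation p = 0.200). The ratio of Tcf7l2, from the count file of each library, differed by -0.39 (exact permutation p = 0.0303, adjusted p = 0.0718), in the direction that 47.1% of all genes also took. It was -3.435, -4.04, -4.395 and -3.89 in controls, the highest being replicate 1, and only 3 of 7 BMAd-DTA mice were below all of these. This difference was not recalculated with a mouse left out or in the muscle-rich libraries.

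**Figure D2:**
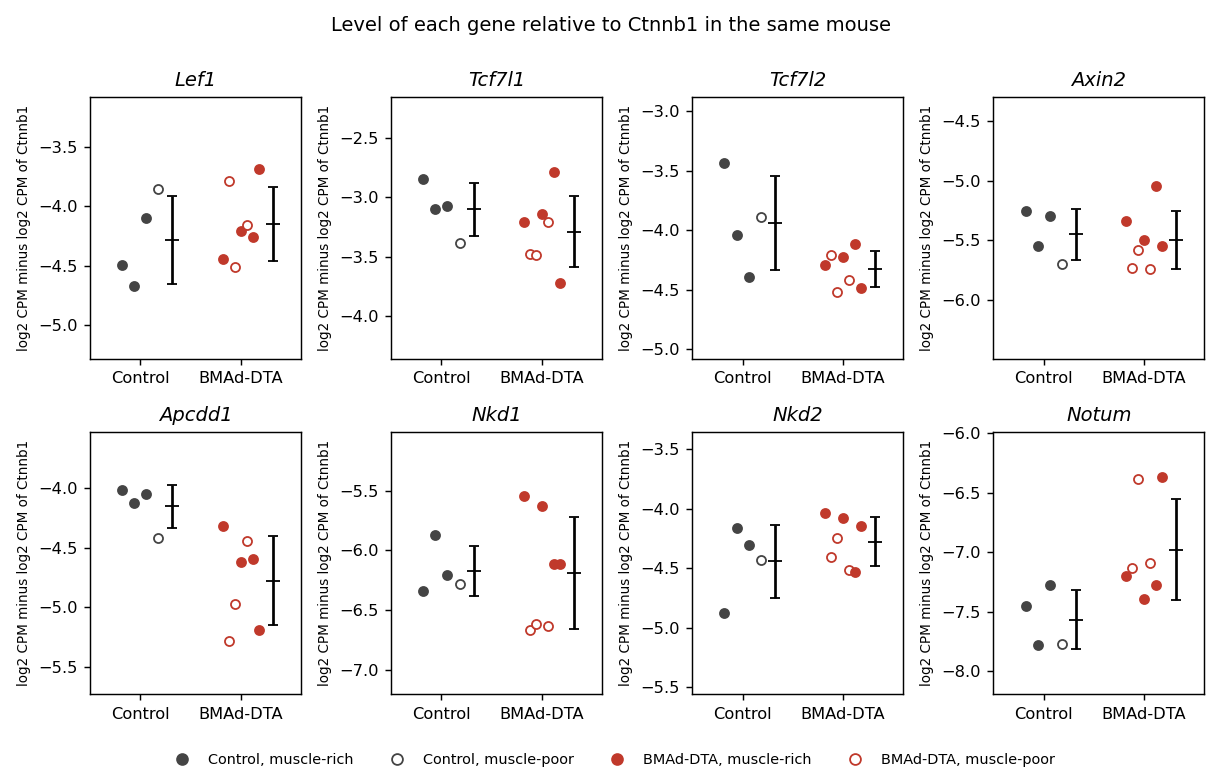
Log2 CPM of 8 genes minus log2 CPM of Ctnnb1 in the same mouse (vertical axes of equal span, placed around each gene's values), by genotype. Points are mice, filled for muscle-rich and open for muscle-poor libraries, and bars are mean ± SD, with Apcdd1 lower in 6 of 7 BMAd-DTA mice than in any control and Notum higher in 5 of 7.

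Within the BMAd-DTA group, the levels of the genes were not shown to vary with Ctnnb1 from mouse to mouse. Over 7 mice, Pearson's r of log2 CPM with Ctnnb1 was highest for Nkd2 at 0.61 (exact permutation p = 0.124, adjusted p = 0.852 over all genes; Spearman's rho 0.57, p = 0.200), followed by Notum at 0.51 (exact permutation p = 0.213, rho -0.14). Axin2 had an r of 0.42 (exact permutation p = 0.363, rho 0.61), Tcf7l2 of 0.47 (exact permutation p = 0.303, rho 0.68, the highest rho, with p = 0.1095), Tcf7l1 of 0.32 (rho 0.61), Apcdd1 of 0.18, Nkd1 of 0.086 and Lef1 of -0.28, and all 8 exact permutation p-values were above 0.05 by either measure. Without BMAd-DTA replicates 3 and 7, the mice with Ctnnb1 farthest from the median, r over the other 5 was highest for Tcf7l2 at 0.77, followed by Nkd2 at 0.70, Nkd1 at 0.67, Axin2 at 0.40 and Tcf7l1 at 0.30, but -0.73 for Notum, 0.19 for Lef1 and -0.06 for Apcdd1, so the sign for these last genes, and the size for Nkd1 and Tcf7l2, rested on those mice. No r is given over all 11 mice, because the genotypes were apart in Ctnnb1.

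**Figure D3:**
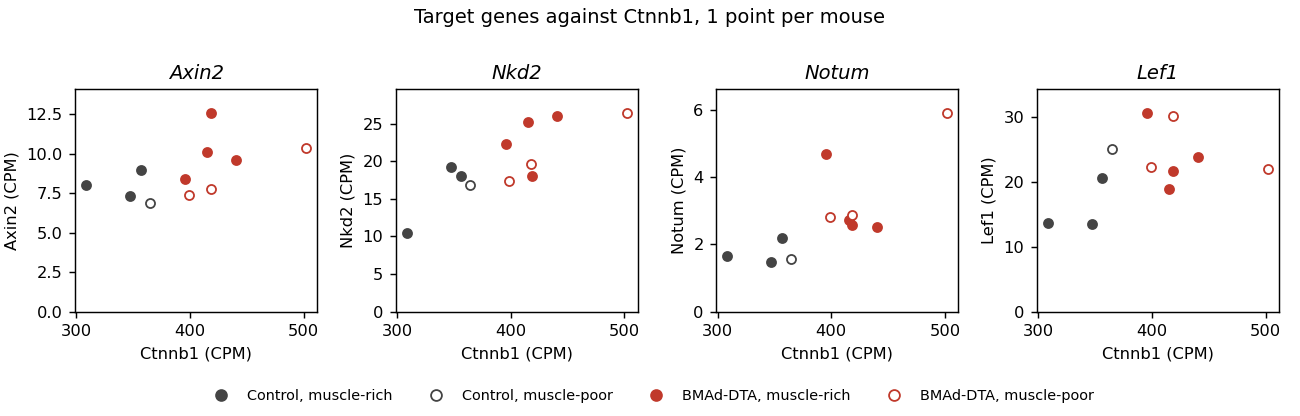
Level of Axin2, Nkd2, Notum and Lef1 (CPM, vertical axes from 0) against that of Ctnnb1 (CPM, horizontal axis, not from 0), with 1 point per mouse, dark for Control and red for BMAd-DTA, filled for muscle-rich and open for muscle-poor. The 4 controls lie left of all 7 BMAd-DTA mice. The BMAd-DTA mouse with the highest Ctnnb1, at 502.2 CPM, has the highest Notum, at 5.90 CPM. The BMAd-DTA mouse with the lowest Ctnnb1, at 395.7 CPM, has the next highest Notum, at 4.69 CPM.

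Genes were also ranked by how nearly their levels ran parallel to that of Ctnnb1. After each genotype's mean was removed, Pearson's r over the 11 libraries was highest for Dnm3os (0.93), an RNA read from the strand opposite Dnm3, and the leading genes also held Bmp3 (0.92), a member of the bone morphogenetic protein family, Fkbp10 (0.92), a chaperone of collagen in the endoplasmic reticulum, and Srpx2 (0.92), a secreted sushi-repeat protein. This ranking covered 12972 genes averaging 50 counts or more per library and carries no test. Nkd2 ranked 343rd at 0.70, and Notum, which averaged too few counts to be ranked, had 0.43. Axin2 ranked 3348th (0.28), Nkd1 4269th (0.19), Lef1 4584th (0.17), Tcf7l1 4768th (0.15) and Apcdd1 5015th (0.13). With so few of the group among so many genes ranked, their absence from the leading genes does not show whether they followed Ctnnb1. Dnm3os, Bmp3, Fkbp10 and Srpx2 also had positive log2 fold changes between genotypes, from 0.63 for Dnm3os to 0.92 for Fkbp10. The 11 values of each gene come from the same libraries, which also differed in their content of bone and muscle RNA.

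Around this group, 72 other pathway genes were listed by role, of which 69 were in the merged table and 67 were tested. In edgeR 0 of the 67 passed an adjusted p of 0.05, 17 were higher and 2 lower at an unadjusted p under 0.05 (beside 7.89% and 8.53% of all genes), and DESeq2 called 12 higher and 2 lower (beside 2.78% and 2.64%). Their median log2 fold change was 0.078, with 43 above 0 and 24 below, where 8307 of all 16496 genes were above 0 and 8189 below. Taking these and the 8 genes as 75, 3 (Dkk1, Tnfrsf19 and Ccn4) passed the edgeR threshold without Control replicate 3, where the genes called in all went from 13 to 292, and 1 (Smad6) without BMAd-DTA replicate 7, where 14 were called in all. These 4 are named after their values were seen.

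The parts that act on beta-catenin before it reaches the nucleus had small median log2 fold changes, beside 0.0018 over all genes. In the destruction complex, 9 of 10 genes had a log2 fold change below 0, beside 8189 of all 16496 genes. Their median was -0.077, and they ran from Btrc to Axin1. Btrc, the F-box protein that recognises phosphorylated beta-catenin, was at 62.3 ± 6.12 CPM in controls and 47.9 ± 7.30 CPM in BMAd-DTA mice (log2 fold change -0.38, SE 0.11, edgeR adjusted p = 0.120, DESeq2 adjusted p = 0.0389). Axin1, the scaffold present in most cells, was at 65.7 ± 3.17 and 69.3 ± 3.21 CPM (0.078 on the log2 scale, edgeR adjusted p = 0.540). The 11 tested genes of the Dishevelled relay had a median of 0.015 and ran from -0.22 for Dact1 to 0.26 for Dact3, both of which encode Dishevelled-binding proteins, and in edgeR neither passed an unadjusted p of 0.05. That of Dact1 was -0.12 in the muscle-rich libraries and -0.088 with counts of both strands. Of the 15 nuclear partners and repressors, with a median of 0.058, Tcf7 was highest at 0.65 (SE 0.20, edgeR adjusted p = 0.133, DESeq2 adjusted p = 0.0261). Tcf7 encodes TCF1, a partner of beta-catenin that is also abundant in T lymphocytes. Tle1, a Groucho-type corepressor, was lowest at -0.17 (SE 0.11, edgeR adjusted p = 0.478), and at -0.060 in the muscle-rich libraries.

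Other described targets of the pathway were the longest list, with 20 tested genes. Their median log2 fold change was 0.37, and 18 of 20 were above 0, beside 8307 of all 16496 genes. In edgeR 10 were higher and 0 lower at an unadjusted p under 0.05 (beside 7.89% and 8.53% of all genes), and DESeq2 called 8 higher (beside 2.78%). Wif1, a secreted factor that binds Wnt ligands, was highest at 39.3 ± 12.7 CPM in controls and 79.9 ± 22.0 CPM in BMAd-DTA mice (log2 fold change 1.02, SE 0.24, edgeR adjusted p = 0.0726, DESeq2 adjusted p = 0.000682). Lgr5, an R-spondin receptor used as a stem cell marker in gut, was lowest at 4.73 ± 0.789 and 4.66 ± 1.64 CPM (log2 fold change -0.02, SE 0.30), and its sign changed with the mouse left out. Every BMAd-DTA mouse stood above every control for 5 of the 67 genes, beside 1.78% of all genes. These were Wif1, Ccn4, Tnfrsf19 and Gja1 of this list and Tle2 of the nuclear partners, of which all but Wif1 are named after their values were seen. Several targets on this list, Wif1, Gja1 and Ccn4 among them, are also expressed by osteoblasts, whose summed markers were likewise higher in all 7 BMAd-DTA mice, and the part of osteoblast RNA in these values was not tested.

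**Figure D4:**
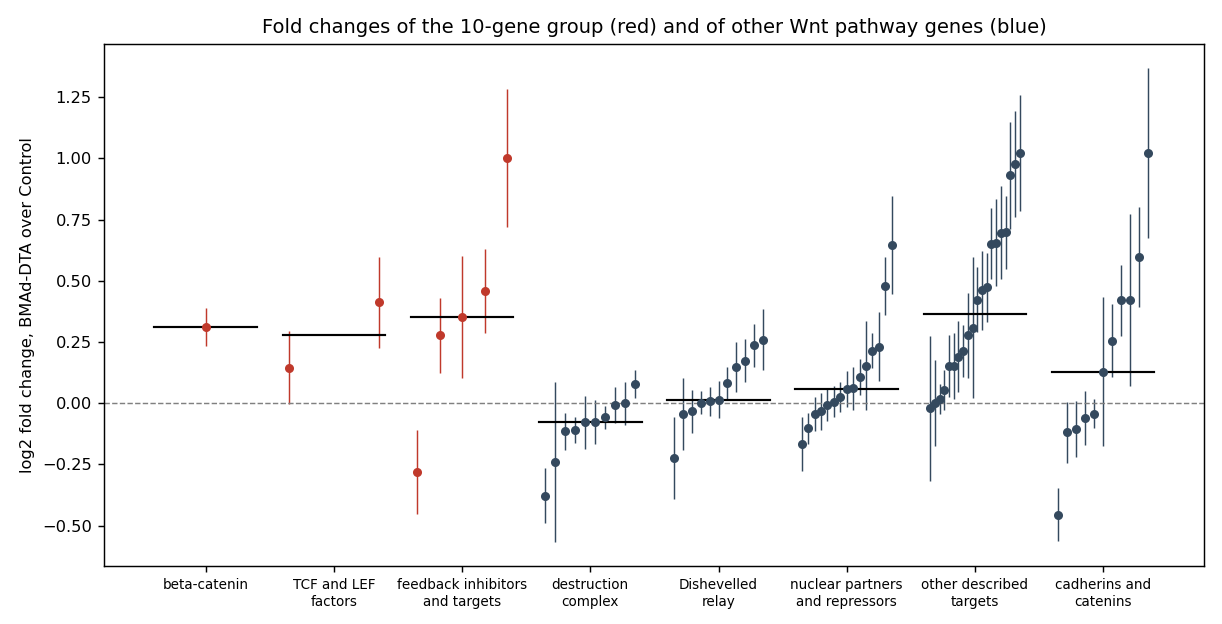
Log2 fold change of BMAd-DTA over Control (vertical axis) for the 8 tested genes of the group (red, 3 columns on the left) and for 67 other pathway genes by role (blue). Points are genes with bars of 1 standard error, black lines are list medians and the dashed line is 0, and the column of other described targets has a median of 0.37 where that of the destruction complex is -0.077.

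At cell junctions, where beta-catenin links cadherins to alpha-catenins, 6 of 11 tested genes had log2 fold changes above 0 and 5 below, around a median of 0.13. Over all 16496 genes, 8307 were above 0 and 8189 below. Cdh15, the cadherin first described in muscle, was highest at 3.55 ± 1.49 CPM in controls and 7.21 ± 2.75 CPM in BMAd-DTA mice (log2 fold change 1.02, SE 0.35, edgeR adjusted p = 0.162, DESeq2 adjusted p = 0.0355). In the muscle-rich libraries its log2 fold change was 0.59 (edgeR adjusted p = 0.632). All 10 skeletal muscle markers had log2 fold changes below 0, and the part of muscle in the Cdh15 values was not tested. Ctnnal1, a protein related to alpha-catenin, was lowest at 22.1 ± 2.73 and 16.1 ± 1.93 CPM (log2 fold change -0.46, SE 0.11, edgeR adjusted p = 0.0763, DESeq2 adjusted p = 0.00711).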

How the data were processed

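Strand-specific mRNA libraries, 1 per mouse, were sequenced in pairs of 100-base reads. Per the labels and methods, the authors checked reads with FastQC 0.11.9, aligned them with STAR to mm10 and tested genotype with DESeq2. The authors deposited raw counts per gene, 1 merged table of 22600 genes and 1 file per library of 55401 genes with a column for each strand setting. The merged table equalled the read-strand column. In the per-library files, 212 genes outside the merged table had over 10 counts in all.

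Counts were scaled by TMM, filtered with filterByExpr and tested for genotype over 4 Control and 7 BMAd-DTA libraries with edgeR 4.0.16 (quasi-likelihood, two-sided, Benjamini-Hochberg over 16496 genes; common biological coefficient of variation 0.202), with DESeq2 1.42.0 and limma 3.58.1 (voom) in R 4.3.3 as alternatives. The SE of a log2 fold change is its size over the square root of F. Ratios and correlations used log2 CPM with a prior count of 2, exact permutation tests and, for correlations, 5040 orders of 7 mice. The edgeR test was checked on simulated counts with planted changes larger than that of Ctnnb1. That check does not show how often a difference as small as that of Ctnnb1 would be found. RPKM divides CPM by the exon length in GENCODE M21 (GRCm38). Replicate numbers follow accession order and pair nothing. The labels name no litter or batch, so p-values measure only the spread between these samples. No 2 replicates matched within counting noise (lowest chi-square per gene 16.7 over 27 pairs). The depth of each library limits precision for genes of few reads, such as Notum.

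The 10 genes, the pathway and marker lists and the tests were chosen with earlier results of these data known. Named pathway genes were the highest and lowest of each list, plus the 5 genes most like Ctnnb1, of which 1 is not reported here, and others are marked where they appear. Of the listed names, 2 were older names of listed genes and were not counted. Alternatives were another test, scaling, filter, prior count or strand setting, a muscle covariate, leaving out each mouse and, added after seeing the data, read-strand counts of all genes and the muscle-rich libraries alone.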

Additional observations from a re-analysis of the deposited data

Results flagged for a closer look

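Ctnnb1 in BMAd-DTA replicate 3 (502.2 CPM) stood apart from the other 6 BMAd-DTA mice by Dixon's test, with a gap of 0.579 of the group's range against a critical value of 0.568. As the highest value of the higher group, it has no part in whether the groups overlap. Sp5 stood apart in Control replicate 2 (0.177 CPM, 3 counts) and in BMAd-DTA replicate 6 (0.0587 CPM, 1 count), in groups where all other libraries had 0 counts. Any single nonzero value among zeros is flagged in this way, so the Sp5 flags carry no information. In all 20 groups of values were examined, and away from the floor chance flags about 1 in 20.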

How the results depend on the processing

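Of 160 recalculated log2 fold changes of the 8 tested genes, 158 kept their direction and side of the threshold, 0 reversed and 2 passed it. Those 2 were Ctnnb1 (0.31) and Notum (1.004) under DESeq2, the 2 genes of the group that it called. None of the 8 had passed in the main fit, so keeping to that side of the threshold does not show that their values were stable. All genes called numbered 13 with edgeR, 845 with DESeq2, 20 with limma-voom, 20 with RLE scaling, 3 with the muscle covariate, 103 in the muscle-rich libraries, which also leave fewer samples, and 0 to 292 with a mouse left out, the highest without Control replicate 3. Pathway genes called, the 10-gene group included, went from 0 to 16 with DESeq2 and 0 to 3 with a mouse left out. The log2 fold change of Lgr5 was 0.021 with the covariate and -0.12 to 0.14 with a mouse left out. Of the ratios to Ctnnb1 in the merged table, 2 (Apcdd1 and Notum) differed at an unadjusted p under 0.05, beside 47.1% of all genes lower and 1.43% higher, and 0 after adjustment. At the unadjusted threshold the count was 0 in the muscle-rich libraries and 1 to 2 with a mouse left out. The difference in ratio for Axin2 was 0.0066 in the muscle-rich libraries and -0.13 to 0.016 with a mouse left out, and for Nkd1 0.29 and -0.12 to 0.088. Correlations without the 2 mice farthest in Ctnnb1 changed sign for Lef1 (0.19), Apcdd1 (-0.060) and Notum (-0.73). The cause of these changes was not tested. No paired analysis was possible because the labels give no replicate numbers that groups share. Depth limits Notum most, and Sp5 was below what these depths can compare.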
